A study of Rattus norvegicus with 10 samples.

Results

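Soluble adenylyl cyclase, protein kinase A (PKA) and the phosphatases and kinases that act with them in sperm motility were examined in rat round spermatids, germ cells that have completed meiosis and not yet elongated. The genes were the 10 rows of the expression files whose gene name is Adcy10, Prkaca, Prkar1a, Prkar2a, Ppp1cc, Ppp3cc, Ppp3r2, Camk4, Gsk3a or Gsk3b. Each name matched 1 row, giving 10 of the 32545 genes in the files, and no measured value entered the choice.

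In sperm, bicarbonate and calcium activate the soluble adenylyl cyclase, which makes cyclic AMP in the cytoplasm and flagellum rather than at the cell surface. Cyclic AMP binds the regulatory subunits of PKA and frees its catalytic subunits, which phosphorylate flagellar proteins and are needed for motility and capacitation. Protein phosphatase 1 (PP1), its regulator glycogen synthase kinase 3 (GSK3) and the calcium-dependent phosphatase calcineurin act on the same phosphorylation in sperm as they mature in the epididymis. Round spermatids transcribe and store the messages for many of these proteins before the sperm forms.

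The samples were wild-type (WT) primary round spermatids of Brown Norway rats in 2 groups: young, 4 to 6 months old (5 libraries), and aged, 18 to 20 months old (5 libraries). All rats were kept under normal conditions with free food and water, and the cells of every sample were separated by STA-PUT, which sorts testis cells by how fast they sediment. Nothing in the labels ties a sample to a single rat or to a pool of rats, so the p-values reflect only how these libraries spread, which may be technical. Levels are FPKM, fragments scaled by gene length and by a factor per library that was 0.966 to 1.03 times its fragment total.

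Round spermatid markers were detected in every library, at unlike levels. Acrv1, of the acrosome, lay between 160 and 242 FPKM and Prm1, a protamine, between 7948 and 16200 FPKM. Catsper1 lay between 33.1 and 47.6 FPKM and Spata16 between 34.6 and 38.4 FPKM. The 8 markers summed to 14588 to 23994 FPKM in young and 14125 to 19502 FPKM in aged libraries, with a higher aged mean for 5 of 8. The libraries held 14488222 to 18203223 fragments. Markers of somatic testis cells were detected in every library, and their sums reached higher values in the aged group. The summed FPKM of the 7 Leydig cell markers was 4.98 to 8.16 in young and 10.95 to 122 in aged libraries, that of the 7 peritubular markers 54.9 to 81.9 and 85.6 to 200.2, and that of the 8 macrophage markers 12.9 to 21.9 and 18.2 to 83.1. The sum of the 8 Sertoli cell markers was 19.1 to 24.7 in young and 19.6 to 91.6 in aged libraries, and that of the 4 endothelial markers found 1.16 to 1.39 and 2.11 to 5.10. The mean was higher in aged libraries for 7 of 7 Leydig, 7 of 7 peritubular, 7 of 8 macrophage, 6 of 8 Sertoli and 4 of 4 endothelial markers. Aged replicates 1 and 2 held the highest of these sums, and no marker was at 0 in all libraries. The part of these cells in the results was not tested. Spermatocyte markers (8) summed to 413 to 490 FPKM in young and 376 to 470 FPKM in aged libraries, with a higher aged mean for 2 of 8, and spermatogonial markers (7) to 51.2 to 69.1 and 50.2 to 63.3 FPKM.

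Promoter sequence was available for 8 of the 10 genes, from RefSeq on build GRCr8, as the 250 bases before the annotated start. Shown are Ppp1cc, which had the highest level of the 10, its low paralog Ppp1ca, Prkaca, and Camk4, which had the smallest p of the 10. Each is written 5′ to 3′ along its gene, with capitals marking the half-sites of a cyclic AMP response element (TGACG), GC boxes with the hexamer GGGCGG, and the CCAAT box, spelled as its name, each searched on both strands:
Ppp1cc (GRCr8 chr12:40061302-40061551, minus strand): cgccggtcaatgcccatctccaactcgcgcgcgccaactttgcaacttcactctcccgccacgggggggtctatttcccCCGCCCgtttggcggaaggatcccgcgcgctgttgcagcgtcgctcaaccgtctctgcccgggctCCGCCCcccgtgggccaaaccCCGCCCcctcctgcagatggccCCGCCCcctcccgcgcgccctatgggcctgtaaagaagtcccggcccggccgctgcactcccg
Ppp1ca (GRCr8 chr1:210914326-210914575, plus strand): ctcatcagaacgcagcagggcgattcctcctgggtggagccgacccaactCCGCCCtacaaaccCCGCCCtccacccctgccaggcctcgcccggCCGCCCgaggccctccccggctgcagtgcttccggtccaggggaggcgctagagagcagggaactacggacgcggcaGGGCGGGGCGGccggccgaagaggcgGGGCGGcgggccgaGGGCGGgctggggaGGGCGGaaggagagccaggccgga
Prkaca (GRCr8 chr19:41083190-41083439, minus strand): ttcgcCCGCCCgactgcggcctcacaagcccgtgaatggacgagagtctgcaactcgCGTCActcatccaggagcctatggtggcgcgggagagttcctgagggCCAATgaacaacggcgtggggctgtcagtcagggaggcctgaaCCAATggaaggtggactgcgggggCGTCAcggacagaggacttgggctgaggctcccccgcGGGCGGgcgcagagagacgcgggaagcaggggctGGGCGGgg
Camk4 (GRCr8 chr18:24856902-24857151, plus strand): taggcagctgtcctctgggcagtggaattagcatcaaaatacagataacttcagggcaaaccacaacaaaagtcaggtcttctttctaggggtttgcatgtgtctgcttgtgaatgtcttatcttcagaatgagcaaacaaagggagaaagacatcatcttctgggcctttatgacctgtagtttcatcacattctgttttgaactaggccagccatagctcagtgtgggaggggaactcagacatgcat

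The full cyclic AMP response element (CRE; TGACGTCA), which contains the half-site on both strands and binds CREM, a regulator of spermatid genes, was in 0 of the 8 windows and in 1.70% of all 27457 promoter windows of this length. A CRE half-site was in 2 of the 8, Prkaca and Gsk3a, against 18.96% of all windows. CCAAT boxes were in Adcy10, Prkaca and Ppp3r2 (34.3% of all windows), GC boxes in Prkaca, Prkar1a, Ppp1cc and Gsk3a (32.4%), and TATA boxes (TATAAA, both strands) in 0 (13.1%). The windows of Ppp1cc and Prkaca held 29 and 22 CpG dinucleotides and that of Ppp1ca 26. The Camk4 window held 0, where the median over all windows was 6. These starts are the annotated ones, and the files do not show which starts spermatids use.

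All 10 genes were well expressed, and their levels in round spermatids spanned 28.0 to 340 FPKM on average. In descending order of mean FPKM over the 10 libraries they were Ppp1cc, Ppp3r2, Prkar1a, Camk4, Gsk3b, Adcy10, Ppp3cc, Prkar2a, Prkaca and Gsk3a. Ppp1cc ranked 246 among the 12985 genes tested (mean of 1 FPKM or more) and Gsk3a ranked 3383. Neighbours in this order were separated in every library except for 3 pairs: the first gene was the higher one in 9 of 10 libraries for Ppp1cc and Ppp3r2, in 8 for Prkar1a and Camk4, and in 8 for Prkar2a and Prkaca. The ranges of Gsk3b and Adcy10 overlapped, although Gsk3b was the higher one within each of the 10 libraries. Between 885 and 15188 fragments lay behind each value.

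**Figure D1:**
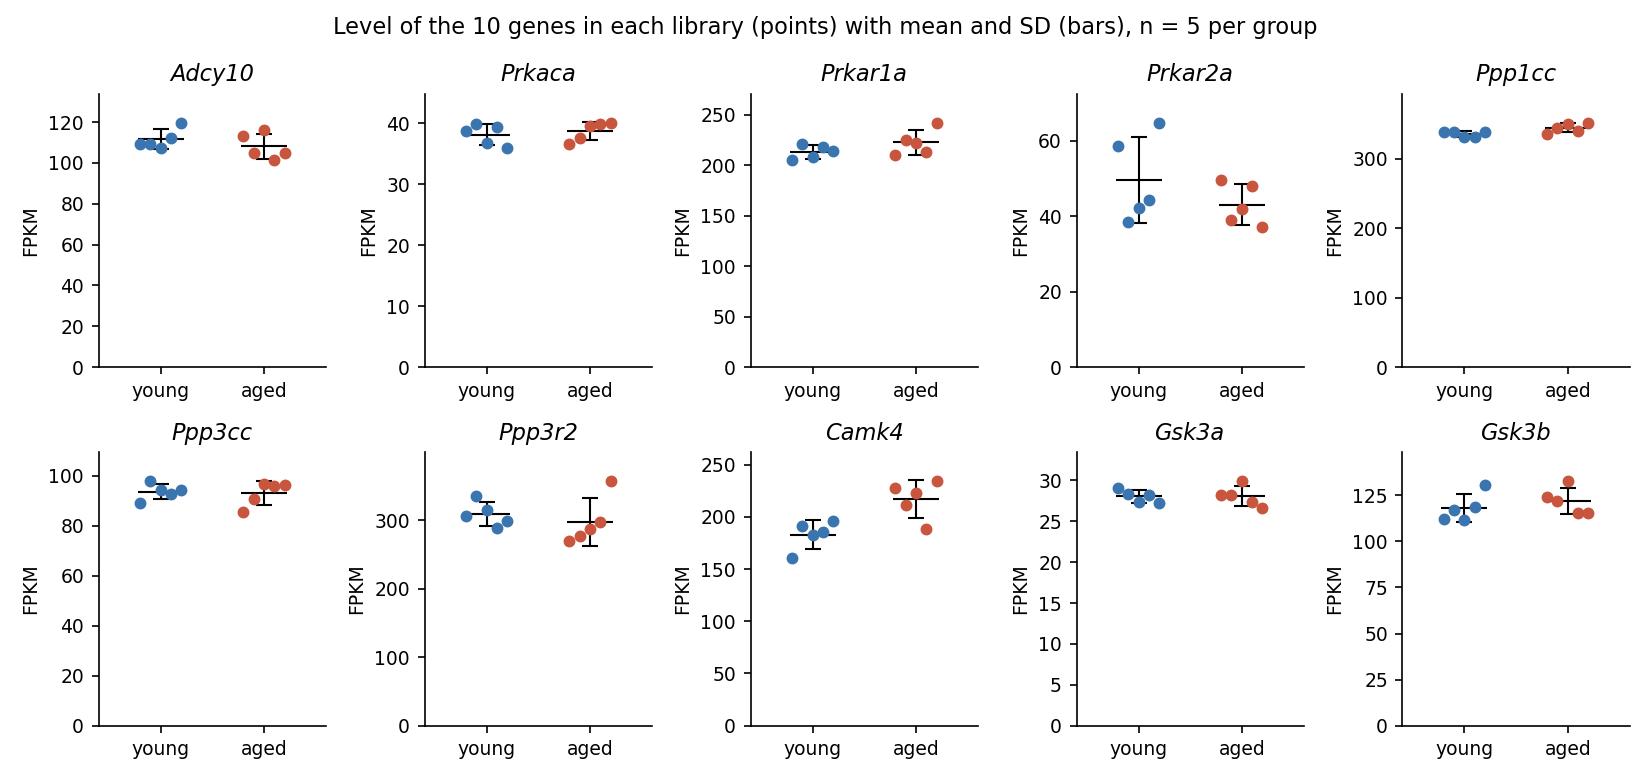
Level of each gene in FPKM (vertical axes, from 0) in the 5 young (blue) and 5 aged (red) libraries, 1 point per library, with the mean and SD as black bars. The groups overlap in every panel; Camk4 has 4 aged libraries above all young ones, and Prkar2a has 2 high young libraries.

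None of the 10 genes passed the test between ages. The test was limma on log2(FPKM + 1) over all 12985 genes, two-sided, at a Benjamini-Hochberg adjusted p of 0.05, and differences below are aged minus young on that scale. With it 0 genes passed (0%), and limma's voom on fragments also called 0. At an unadjusted p under 0.05, 1 of the 10 was called, Camk4, where the background over all tested genes was 11.9% (1544 genes with limma and 1536 with voom). Of those 1544 genes 46.6% were higher in aged libraries. Among the 1661 genes called after TPM scaling the share was 63.4%, and among the 1536 called with voom it was 62.8%. The 10 genes split into 5 higher and 5 lower, with a median of 0.01 where all tested genes had -0.02; after TPM scaling or with voom 7 were higher. The 2 groups did not overlap for 0 of the 10, against a background of 2.60%. Fewer cells of a type and less RNA per cell cannot be told apart in these bulk libraries.

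**Figure D2:**
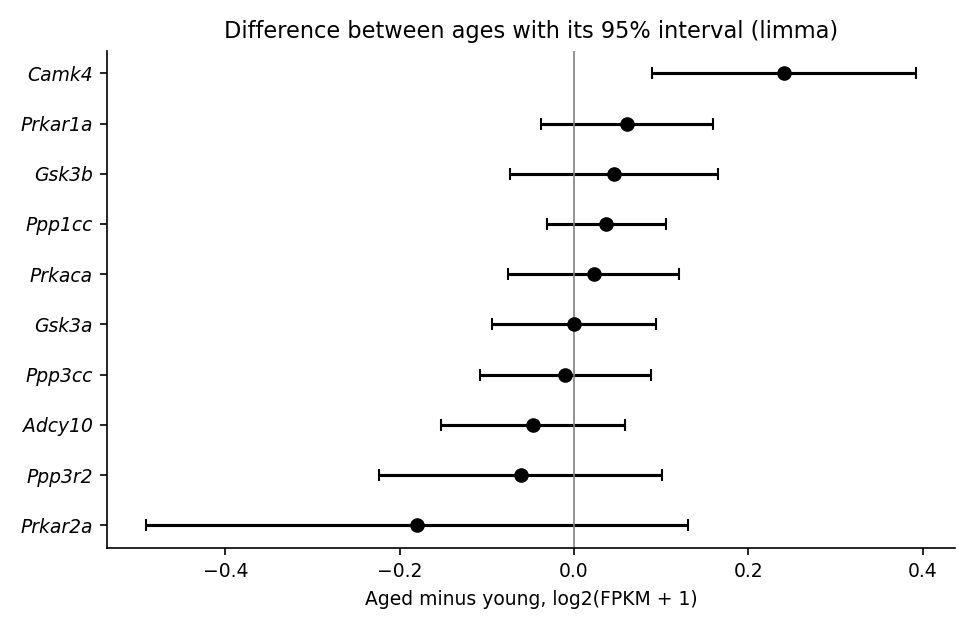
Difference between aged and young libraries for each gene in log2(FPKM + 1) (horizontal axis), with points for the fitted value and bars for its 95% interval from limma. The interval of Camk4, 0.09 to 0.39, lies above 0, and the widest interval is that of Prkar2a, -0.49 to 0.13.

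Adcy10 encodes the soluble adenylyl cyclase (ENSRNOG00000053410, chromosome 13, 83721300 to 83787018, plus strand; coordinates are as the files give them, their build not given). It stood at 109.4, 109.5, 107.4, 112.1 and 119.6 FPKM in young replicates 1 to 5 and at 112.9, 104.6, 116.3, 101.6 and 104.8 FPKM in aged replicates 1 to 5. Aged replicates 2, 4 and 5 were below every young library, while aged replicates 1 and 3 lay within the young range. The means were 112 ± 4.79 and 108 ± 6.23 FPKM (SD, n = 5), a log2 difference of -0.05 (SE 0.05, limma adjusted p = 0.680). The 95% interval ran from -10.0% to 4.14% for aged against young libraries.

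Adcy10 made up nearly all of the adenylyl cyclase message. Its share of the summed FPKM of Adcy1 to Adcy10 was 93.9 ± 0.504% in young and 93.2 ± 1.51% in aged libraries (SD, n = 5). The next, Adcy3, a membrane cyclase, averaged 4.98 and 4.77 FPKM, and Adcy10 was 18.5 to 29.5 times its level in the 10 libraries. The other membrane cyclases averaged under 1 FPKM in both groups. The lowest Adcy10 share, 90.9%, was in aged replicate 2, the library with the highest sums of Leydig, peritubular, Sertoli and macrophage markers; their part in the share was not tested.

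The 5 tested genes whose profile over the 10 libraries was most like that of Adcy10 were Srpk2, a kinase of splicing factors, Zbbx, AABR07043877.2 (a lincRNA), Jmjd1c, a histone demethylase family member, and Zranb1, a deubiquitinase. AABR07043877.2 averaged 1.15 FPKM, near the filter of 1 FPKM, and ranged from 0 to 3.50 FPKM, so its profile rests on low values. Likeness was the root mean square difference of z-scored log2(FPKM + 1) values, which was 0.41 for Srpk2 and 0.44 for Zranb1 against a median of 1.41 over all tested genes. The most like among the other 9 genes was Gsk3b, at 0.74 and rank 207. Like Adcy10, Srpk2 was highest in young replicate 5 (99.8 FPKM) and lowest in aged replicate 4 (82.95 FPKM).

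The PKA catalytic subunit Prkaca (ENSRNOG00000005257, chromosome 19, 25095089 to 25118860, plus strand) gives both the somatic catalytic subunit and a sperm form from another first exon, which a single value per gene cannot separate. It stood at 38.7, 39.9, 36.7, 39.4 and 36.0 FPKM in young replicates 1 to 5 and at 36.6, 37.6, 39.5, 39.8 and 40.0 FPKM in aged replicates 1 to 5. The groups overlapped almost wholly, and only aged replicate 5 was above all young libraries. The difference was 0.02 (SE 0.04, limma adjusted p = 0.847), with an interval from -5.14% to 8.75%. Prkaca was 9.61 to 36.6 times as high as its paralog Prkacb per library and made up 95.3 ± 1.05% of the sum of both in young and 94.1 ± 2.63% in aged libraries. As for Adcy10, its lowest share (90.6%) was in aged replicate 2.

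Prkar1a, the type I alpha regulatory subunit (ENSRNOG00000049876, chromosome 10, 97940705 to 97957336, plus strand), stood at 204.9, 220.9, 208.0, 218.2 and 214.4 FPKM in young replicates 1 to 5. In aged replicates 1 to 5 it stood at 210.7, 225.5, 221.9, 213.0 and 242.1 FPKM. Aged replicates 2, 3 and 5 were above every young library and the other aged libraries were within the young range. The difference was 0.06 (SE 0.04, limma adjusted p = 0.569), with an interval from -2.58% to 11.7%. Prkar1a was the leading regulatory subunit in all 10 libraries: it was 2.82 times as high as Prkar1b, 4.69 times as high as Prkar2a and 20.7 times as high as Prkar2b on average.

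Prkar2a, the type II alpha regulatory subunit that anchoring proteins hold at the sperm's fibrous sheath (ENSRNOG00000020284, chromosome 8, 117486083 to 117546370, plus strand), varied most among the 10 genes. It stood at 58.7, 38.4, 42.3, 44.2 and 64.8 FPKM in young replicates 1 to 5 and at 49.6, 39.0, 41.8, 48.1 and 37.2 FPKM in aged replicates 1 to 5. Young replicates 1 and 5 were above all other libraries, and the other 3 young libraries lay among the aged ones. The means were 49.7 ± 11.4 and 43.1 ± 5.50 FPKM (SD, n = 5), a difference of -0.18 (SE 0.14, limma adjusted p = 0.594). Without young replicate 5 the difference was -0.08 and without young replicate 1 it was -0.11, and leaving out each library in turn gave -0.26 to -0.08. The interval, from -28.9% to 9.49%, was the widest of the 10.

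The order of the libraries by Prkar2a was nearly the order by Prm1, the most abundant of the spermatid markers. This comparison was chosen after the values were seen. Of the 10 libraries 6 had the same rank for both genes and none differed by more than 1 rank. Prm1 stood at 14554, 8880, 9837, 11298 and 16200 FPKM in young replicates 1 to 5 and at 11520, 9824, 10435, 10945 and 7948 FPKM in aged replicates 1 to 5. The Prkar2a level was 0.392% to 0.468% of the Prm1 level throughout. Acrv1, an earlier acrosome marker, did not follow this order: it was lowest in young replicate 1 (160 FPKM) and 221 FPKM in young replicate 5. Tnp1, another of the spermatid markers, followed it in part. It was highest in aged replicate 1 (6879 FPKM), young replicate 5 (6669 FPKM) and young replicate 1 (5527 FPKM). These were also the highest libraries for Prkar2a, in another order. Tnp1 was lowest in aged replicate 4 (4414 FPKM), and stood at 4995 FPKM in aged replicate 5, where Prkar2a was lowest. The part of spermatid stage in the spread of Prkar2a was not tested. By the same measure of likeness, and chosen after the Prkar2a values were seen, the genes nearest to Prkar2a were Fam71f2 (0.16), Lpin1 (0.16), a phosphatidate phosphatase, Habp4 (0.17), Herpud1 (0.19) and LOC100365321 (0.19). The nearest of the other 9 genes was Adcy10 at 1.01.

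**Figure D3:**
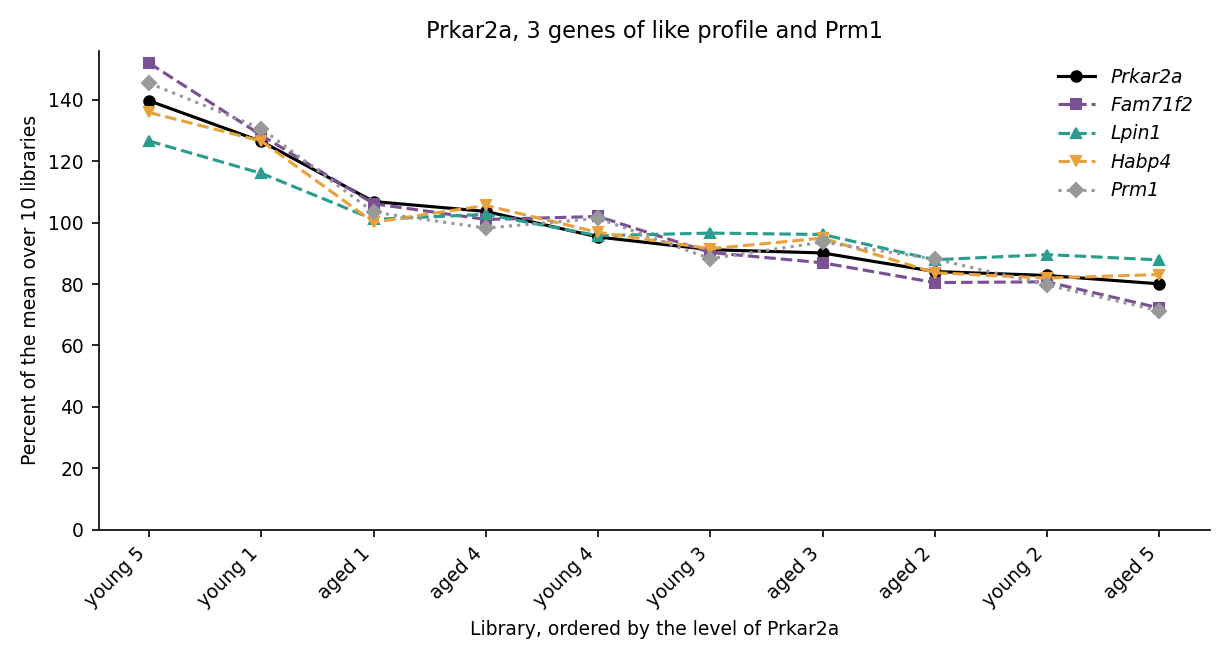
Level of Prkar2a, of 3 genes nearest to it in profile and of Prm1 in each library, as a percentage of the gene's mean over the 10 libraries (vertical axis, from 0), with the libraries ordered by Prkar2a (horizontal axis). Young replicates 5 and 1 are highest for all 5 genes, with Prkar2a at 140% and 126% of its mean.

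Among the paralogs, Prkar1b, a regulatory subunit best known from the nervous system, had a mean of 72.8 ± 5.99 FPKM (young) against 81.6 ± 4.69 FPKM (aged), a difference of 0.17 (SE 0.06, unadjusted p = 0.0228, limma adjusted p = 0.374). It ranged from 63.4 to 79.7 FPKM in young and from 76.4 to 86.6 FPKM in aged libraries, so the groups overlapped. The summed regulatory subunits were 8.28 to 9.62 times the summed catalytic subunits in FPKM, with a mean of 8.66 ± 0.556 in young and 8.72 ± 0.321 in aged libraries. Prkar1a made up 61.7 ± 2.33% of the regulatory sum in young and 62.1 ± 1.90% in aged libraries.

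Ppp1cc encodes the PP1 gamma catalytic subunit (ENSRNOG00000001269, chromosome 12, 39864295 to 39882030, minus strand), whose splice form gamma-2 is the main PP1 of sperm; the files give both forms as 1 value. It stood at 339.1, 338.9, 331.3, 330.8 and 338.6 FPKM in young replicates 1 to 5 and at 336.2, 344.0, 350.1, 340.6 and 351.7 FPKM in aged replicates 1 to 5. Aged replicates 2 to 5 were above every young library, by small amounts. The means were 336 ± 4.29 and 345 ± 6.46 FPKM (SD, n = 5), a difference of 0.04 (SE 0.03, limma adjusted p = 0.616), and the interval ran from -2.15% to 7.61%.

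Ppp1cc was one of the steadiest genes of these libraries. Its coefficient of variation (CV, the SD as a percentage of the mean over the 10 libraries) was 2.04%, rank 9 from the lowest of 12985, where the median was 12.2% and that of the 4154 genes with at least 20 FPKM was 7.41%. Gsk3a (3.45%), Prkaca (4.02%), Ppp3cc (4.10%), Prkar1a (4.90%), Adcy10 (5.06%) and Gsk3b (6.01%) were also below both medians. Ppp3r2 (8.84%) and Camk4 (11.6%) lay between them, and Prkar2a (19.6%) above both.

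**Figure D4:**
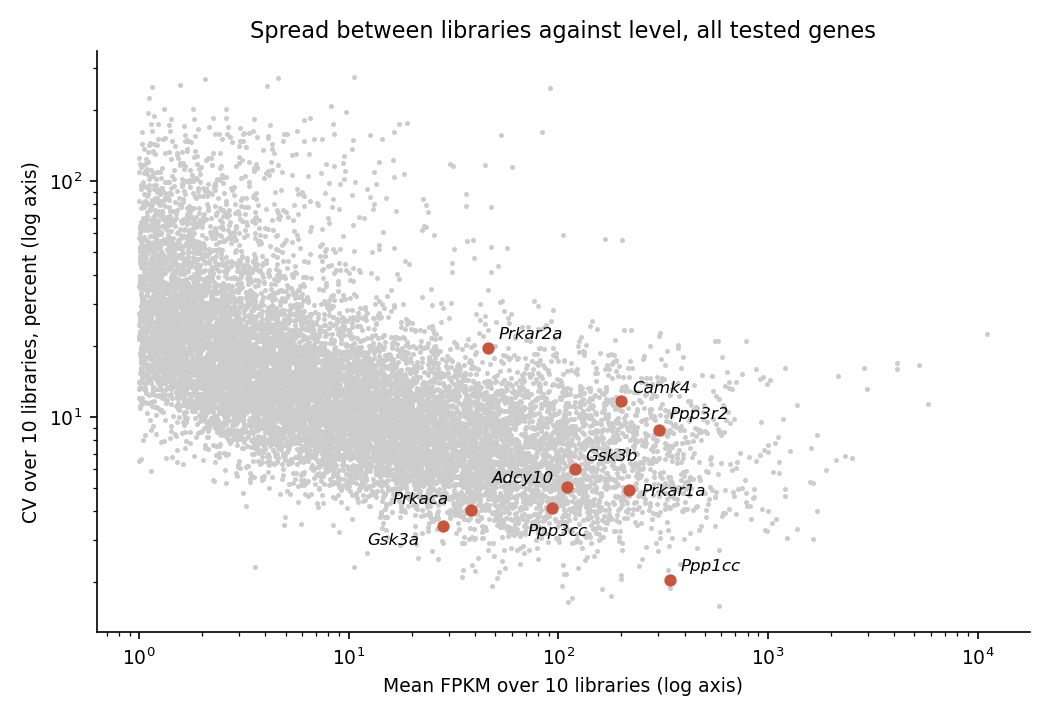
CV over the 10 libraries in percent against mean FPKM, both on log axes, for all 12985 tested genes (grey) and the 10 genes described here (red, named). Ppp1cc lies at the lower edge at 2.04%, and Prkar2a lies above most genes of its level at 19.6%.

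The other PP1 catalytic subunits were low in these cells. Ppp1cc was 23.6 to 33.5 times as high as Ppp1ca and 39.8 to 77.9 times as high as Ppp1cb per library, and made up 95.2 ± 0.289% of the 3 in young and 94.7 ± 0.677% in aged libraries. Ppp1ca ranged from 10.1 to 12.3 FPKM in young libraries (mean 11.1) and from 11.9 to 14.6 FPKM in aged ones (mean 12.7) (difference 0.18, SE 0.07, unadjusted p = 0.0345, limma adjusted p = 0.396). The lowest Ppp1cc share, 93.7%, was again in aged replicate 2.

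Calcineurin in sperm is made of a catalytic subunit, Ppp3cc, and a regulatory subunit, Ppp3r2, which differ from those of most other tissues. Ppp3cc (ENSRNOG00000009745, chromosome 15, 51896615 to 51967897, minus strand) stood at 89.2, 97.8, 94.2, 92.7 and 94.4 FPKM in young replicates 1 to 5 and at 85.6, 90.8, 96.5, 96.1 and 96.4 FPKM in aged replicates 1 to 5. Only aged replicate 1 was outside the young range, below it. The difference was -0.01 (SE 0.04, limma adjusted p = 0.933), and its sign turned without aged replicates 1 and 2 together (0.04), after TPM scaling and with voom. The interval ran from -7.18% to 6.27%.

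Ppp3r2 (ENSRNOG00000005368, chromosome 5, 64945583 to 64946580, minus strand), the testis calcineurin B subunit, lies within the span of Grin3a on the same strand, a gene at 0.766 to 1.05 FPKM. Ppp3r2 stood at 306.0, 335.5, 315.7, 289.4 and 299.1 FPKM in young replicates 1 to 5 and at 269.0, 276.7, 286.6, 298.1 and 356.9 FPKM in aged replicates 1 to 5. Aged replicates 1, 2 and 3 were below every young library and aged replicate 5 above all of them. The difference was -0.06 (SE 0.07, limma adjusted p = 0.734), with an interval from -14.3% to 7.27%. Without aged replicate 5 it was -0.13 (limma unadjusted p = 0.0304, adjusted p = 0.481), and without aged replicates 1 and 2 together it was 0.02.

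Both testis subunits far exceeded their paralogs. Ppp3cc was 41.5 times as high as Ppp3ca and 37.9 times as high as Ppp3cb on average, and made up 95.3 ± 0.315% of the catalytic sum in young and 95.1 ± 0.653% in aged libraries. Ppp3r2 was 39.0 to 73.8 times as high as Ppp3r1 per library and made up 98.0 ± 0.340% and 98.0 ± 0.406% of the pair. The summed B subunits were 2.91 to 3.59 times the summed A subunits in FPKM.

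**Figure D5:**
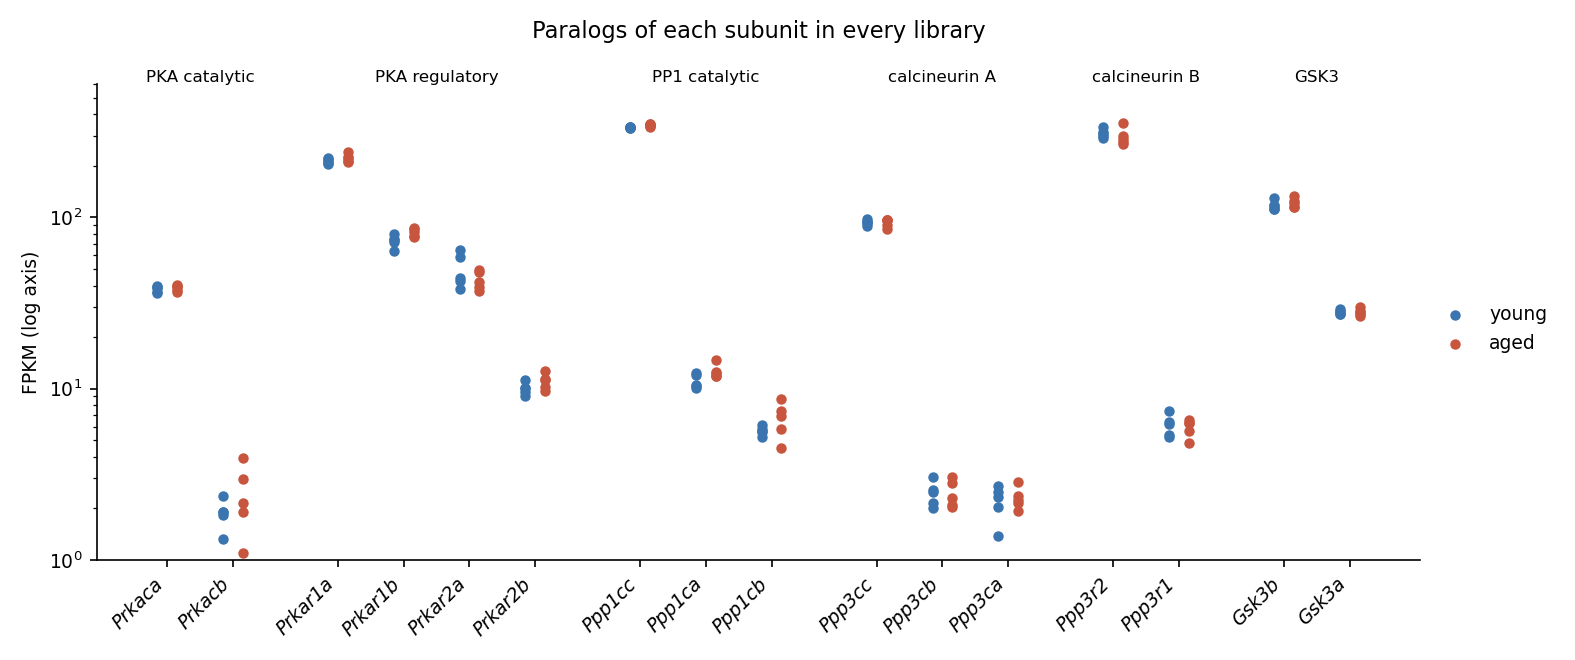
Level in FPKM (vertical axis, log scale) of each subunit and its paralogs in the 5 young (blue) and 5 aged (red) libraries, 1 point per library. In the PKA catalytic, PP1 and calcineurin families 1 gene stands far above the others at both ages, such as Ppp3r2 at 39.0 to 73.8 times Ppp3r1, while Gsk3b is above Gsk3a in every library.

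Camk4, a calcium and calmodulin-dependent kinase of germ cells and neurons, had the largest difference between ages of the 10 genes. Its gene (ENSRNOG00000020478, chromosome 18, 25749098 to 25965957, plus strand) also gives calspermin, a shorter testis transcript from an internal promoter, which the files do not separate. It stood at 160.8, 191.1, 182.5, 185.6 and 195.9 FPKM in young replicates 1 to 5 and at 228.0, 211.2, 222.7, 188.0 and 234.1 FPKM in aged replicates 1 to 5. Aged replicates 1, 2, 3 and 5 were above every young library, and aged replicate 4 was within the young range, so the groups overlapped by 1 library. The means were 183 ± 13.5 and 217 ± 18.2 FPKM (SD, n = 5).

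The Camk4 difference was 0.24 (SE 0.07), with an interval from 6.38% to 31.3% higher, an unadjusted p of 0.00496 and a limma adjusted p of 0.319, so it did not pass over all genes. In the fits that left out 1 library it was 0.20 to 0.29, with the smallest value without young replicate 1 and adjusted p values from 0.180 to 0.520. Aged replicates 1 and 2 had the highest sums of somatic cell markers. Without these libraries the aged mean of Camk4 was 215 FPKM and the difference 0.23 (limma unadjusted p = 0.0256, adjusted p = 0.669). Leaving them out did not level the somatic markers. The remaining aged libraries still exceeded every young one in Leydig (10.95 to 17.1 against at most 8.16 FPKM) and peritubular sums (85.6 to 100.6 against at most 81.9 FPKM). Their endothelial sums were higher too, while their Sertoli and macrophage sums overlapped the young range. By the same measure of likeness, and chosen after the Camk4 values were seen, the nearest genes were Zfp239 (0.22), a zinc finger gene, LOC102549011 (0.23), Dnajb13 (0.26), a flagellar radial spoke protein, Nol7 (0.29) and AABR07030823.1 (0.29), a pseudogene. The nearest of the other 9 genes was Prkar1a at 0.79. Like Camk4, the spermatid markers Acrv1 and Spaca1 were lowest in young replicate 1 (160 and 174 FPKM). They were also highest in aged replicate 5 (242 and 292 FPKM) and, among aged libraries, lowest in replicate 4 (199 and 218 FPKM). Acrv1 was however higher in young replicate 3 (222 FPKM) than in aged replicate 2 (216 FPKM), and Prm1 was lowest in aged replicate 5. This comparison came after the values were seen. The part of spermatid stage in the Camk4 difference was not tested.

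GSK3 has 2 isoforms, and in sperm the alpha form is the one that mice need for fertility. Gsk3a (ENSRNOG00000020417, chromosome 1, 82097247 to 82108203, minus strand) stood at 29.1, 28.3, 27.3, 28.2 and 27.3 FPKM in young replicates 1 to 5 and at 28.2, 28.2, 29.9, 27.3 and 26.6 FPKM in aged replicates 1 to 5. The means were 28.0 ± 0.773 and 28.1 ± 1.23 FPKM (SD, n = 5), and the interval of the difference ran from -6.35% to 6.76% (limma adjusted p = 0.999). Gsk3a overlaps Zfp526 on the opposite strand, a gene at 25.7 to 30.4 FPKM; the strand setting of the counting is not given, so fragments of both in the shared stretch may not be told apart.

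Gsk3b (ENSRNOG00000002833, chromosome 11, 65066235 to 65209268, minus strand) stood at 112.2, 117.3, 111.6, 118.6 and 130.3 FPKM in young replicates 1 to 5 and at 123.9, 121.8, 132.6, 115.2 and 115.5 FPKM in aged replicates 1 to 5. The groups overlapped, with only aged replicate 3 above all young libraries. The difference was 0.05 (SE 0.05, limma adjusted p = 0.725), with an interval from -4.95% to 12.2%. Gsk3a made up 19.2 ± 1.22% of the sum of both isoforms in FPKM in young and 18.7 ± 0.296% in aged libraries. Its share lay between 17.3% in young replicate 5 and 20.6% in young replicate 1, and the 5 aged libraries lay between 18.4% and 19.2%, all below the young median.

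None of the 7 paralog shares passed a test between ages. By the two-sided exact permutation test p was 0.111 for the Ppp1cc share (a difference of -0.55 percentage points, with 4 of 5 aged libraries below the young median) and 0.405 to 0.897 for the shares of Adcy10, Prkaca, Prkar1a, Ppp3cc, Ppp3r2 and Gsk3a. Adjusted over the 7 shares by Benjamini-Hochberg, the values were 0.736 to 0.897. Single libraries moved these values. Without young replicate 5 the Gsk3a share difference was -1.01 percentage points (exact permutation p = 0.0159, adjusted 0.111) and without young replicate 1 it was -0.18. Without aged replicate 3 the Ppp1cc share difference was -0.76 (exact permutation p = 0.0317, adjusted 0.222), and without aged replicate 2 it was -0.30. Without aged replicate 2 the Adcy10 share difference was -0.11 and that of Prkaca -0.30, where all libraries gave -0.70 and -1.19. The p-values that missed the threshold do not show that the shares were equal.

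The wider pathway was read from 8 lists holding 140 genes besides the 10, of which 95 were tested. With limma 0 of the 95 passed at an adjusted p of 0.05, and 10 had an unadjusted p under 0.05 (7 higher and 3 lower in aged libraries, background 5.54% higher and 6.35% lower). They were Pde10a, Prkar1b, Akap9, Akap11, Akap14, Crtc1, Ppp1ca, Ppp1r15a, Ppp1r32 and Gskip. The count was 7 without aged replicates 1 and 2, where the share over all tested genes was 7.32% in place of 11.9%. It fell to 5 without young replicate 1 or aged replicate 5 (8.88% and 9.97% of all tested genes). The count was 6 without young replicate 4 or aged replicate 2 (9.27% and 9.35%). The share over all genes thus fell in each of these fits too. The median difference over the 95 was 0.02, where all tested genes had -0.02. Of all 12985 tested genes 45.5% were higher in aged libraries, the background for the higher and lower counts of each list below. Those counts are from the main fit only. The median over all tested genes was 0.0008 after TPM scaling and 0.006 with voom, so the counts depend on the scaling.

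In the list of cyclic AMP synthesis and breakdown, 5 of 13 tested genes were higher and 8 lower in aged libraries (median -0.04), Adcy10 among the lower ones. The most abundant besides Adcy10 were Pde1a, a calmodulin-dependent phosphodiesterase, at 122 ± 16.1 FPKM in young and 115 ± 2.83 FPKM in aged libraries, and Slc9c1, the sperm sodium-proton exchanger, at 108 ± 8.46 and 98.6 ± 8.25 FPKM. Pde10a, a phosphodiesterase of both cyclic nucleotides, averaged 33.3 ± 1.52 and 35.7 ± 1.13 FPKM (unadjusted p = 0.0457, limma adjusted p = 0.418).

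Of the 9 tested PKA subunits and inhibitors 7 were higher and 2 lower (median 0.06). Among the PKA inhibitors, which block the free catalytic subunit, Pkib averaged 191 ± 15.9 FPKM (young) against 182 ± 8.30 FPKM (aged), and Pkig 181 ± 7.28 and 191 ± 9.09 FPKM. Neither difference passed (limma adjusted p = 0.665 and 0.484).

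Of 17 tested A-kinase anchoring genes, which tether PKA or bind like its regulatory subunits, 7 were higher and 10 lower (median -0.02). The most abundant were Ropn1l, a ropporin of the fibrous sheath, at 1696 ± 62.6 and 1741 ± 73.5 FPKM, and Spa17 at 971 ± 23.7 and 1031 ± 101 FPKM. Akap14, an anchoring protein of the axoneme, averaged 16.96 ± 1.33 and 19.1 ± 1.14 FPKM (unadjusted p = 0.0246) and Akap11, a scaffold that also binds GSK3 and PP1, 4.75 ± 0.451 and 3.95 ± 0.443 FPKM (unadjusted p = 0.0252), with limma adjusted p values of 0.379 and 0.382. Akap9, a scaffold of the centrosome and Golgi named here after its values were seen, averaged 3.47 ± 0.226 and 2.98 ± 0.279 FPKM (unadjusted p = 0.0445, limma adjusted p = 0.416).

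Among 10 tested effectors and targets of cyclic AMP 7 were higher and 3 lower (median 0.01). Crem, the transcription factor of spermatid genes, averaged 52.1 ± 3.55 and 55.4 ± 2.26 FPKM and its relative Atf1 45.99 ± 1.68 and 43.6 ± 3.34 FPKM. Crtc1, a CREB coactivator, had means of 8.14 ± 0.346 and 9.20 ± 0.468 FPKM (unadjusted p = 0.0141, limma adjusted p = 0.353).

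Of 22 tested PP1 subunits and regulators 13 were higher and 9 lower (median 0.03). The most abundant regulator was Ppp1r32, at 225 ± 12.0 FPKM in young and 249 ± 17.0 FPKM in aged libraries (difference 0.14, unadjusted p = 0.0238, limma adjusted p = 0.379). Ywhaq, a 14-3-3 protein, averaged 206 ± 2.55 and 199 ± 13.2 FPKM. Ppp1r15a, which directs PP1 to a translation factor under stress and was named after its values were seen, averaged 1.05 ± 0.184 and 2.12 ± 1.36 FPKM (unadjusted p = 0.0423, limma adjusted p = 0.412). Its highest values, 4.461 and 2.003 FPKM, were in aged replicates 2 and 1, the libraries with the highest sums of somatic cell markers; the part of those cells was not tested.

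In the calcineurin list 6 of 12 tested genes were higher and 6 lower (median -0.00), and limma gave 0 an unadjusted p under 0.05, where the background was 11.9%. Spata33, which links calcineurin to sperm mitochondria, was near Ppp3r2 in level, at 326 ± 30.3 and 340 ± 19.4 FPKM. Chp1, a calcineurin B homolog, averaged 12.8 ± 1.13 and 11.8 ± 0.812 FPKM and Nfat5, a transcription factor of the NFAT family, 1.70 ± 0.181 and 1.47 ± 0.171 FPKM.

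Of 8 tested calmodulin and calmodulin kinase genes 5 were higher and 3 lower (median 0.04), and Camk4 was the 1 with an unadjusted p under 0.05, near the background of 11.9%. Calm3, which encodes the calcium sensor calmodulin, averaged 367 ± 8.87 and 394 ± 45.7 FPKM. Camk2n1, an inhibitor of another calmodulin kinase, averaged 5.60 ± 1.29 and 6.42 ± 0.731 FPKM.

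Of 14 tested GSK3 partners, both isoforms included, 8 were higher and 6 lower (median 0.05). Gskip, which binds GSK3 and PKA, was the 1 gene of the 95 whose groups did not overlap, against a background of 2.60%: it ranged from 7.20 to 8.39 FPKM in young and from 6.71 to 7.07 FPKM in aged libraries (difference -0.15, SE 0.06, unadjusted p = 0.0181, limma adjusted p = 0.363). Frat2, a GSK3-binding protein, averaged 197 ± 39.0 and 191 ± 27.7 FPKM, Csnk1a1, a kinase that primes GSK3 substrates, 148 ± 4.76 and 147 ± 9.83 FPKM, and Akt1, a kinase that phosphorylates GSK3, 3.25 ± 0.527 and 4.12 ± 1.07 FPKM.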

How the data were processed

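The deposited files give 1 FPKM value per gene and sample for 32545 genes, 1 file per sample, per the file headers. Libraries were made from total RNA with a SMARTER mRNA kit, per the labels. HISAT2 2.0.5 and featureCounts 1.5.0-p3 are named in the submitters' processing notes; the sources used here do not give settings, strand, genome build or scaling. Fragment numbers were worked back from FPKM, gene length and the step of each sample; 100% of values above 0 were whole within 0.001, and the FPKM denominator was 0.966 to 1.03 times the recovered total. Median-of-ratios factors of the deposited values were the same in all samples, so these values were already level by that measure. TPM scaling and voom start from library totals instead.

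The 12985 genes whose mean reached 1 FPKM were fitted on log2(FPKM + 1) with limma 3.58.1 (trend) in R 4.3.3, adjusted by Benjamini-Hochberg. This scale understates changes of low genes. Paralog shares, each a percentage of summed FPKM, were compared by exact permutation. The fit was tested on simulated data. The 10 genes, the lists, the tests and the alternatives were chosen with earlier results of these data known. Named are the 10 genes, their paralogs, the 5 genes most like Adcy10 and, in each list, the 2 genes with the highest mean and the 2 with the smallest p. One gene that this rule names is not reported here. The ratios of summed subunits and the likeness to Prkar2a and Camk4 were added after the values were seen. So were the comparisons of Prkar2a and Camk4 with spermatid markers such as Prm1 and Acrv1. Alternatives were other pseudocounts, filters and scalings, voom on fragments, a replicate block and leaving out libraries. The labels name no batch. Protein sequences were not used here.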

Additional observations from a re-analysis of the deposited data

How the results depend on the processing

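None of the 10 genes passed at an adjusted p of 0.05 in any fit, and Camk4 kept its sign and an unadjusted p under 0.05 in all of them. The filters, the replicate block and median-of-ratios scaling leave each fitted difference the same or nearly the same, so its sign could not change there. Of 90 values of the 10 genes under settings other than leaving out 1 library, these included, 84 kept their sign. The exceptions were Ppp3cc after TPM scaling (0.0036), with voom (0.013) and without aged replicates 1 and 2 (0.041), Ppp3r2 without aged replicates 1 and 2 (0.017), and Gsk3a after TPM scaling (0.013) and with voom (0.023). Leaving out 1 library gave -0.027 to 0.019 for Ppp3cc and -0.023 to 0.018 for Gsk3a; it gave -0.26 to -0.079 for Prkar2a. Of the paralog shares, the difference changed sign without aged replicates 1 and 2 for Prkaca (0.54 percentage points), Ppp3cc (0.12) and Ppp3r2 (0.13), and leaving out 1 library gave -0.21 to 0.036 for Ppp3r2, -0.55 to 0.97 for Prkar1a and -0.30 to 0.097 for Ppp3cc; the share differences of Adcy10 (-0.97 to -0.11), Prkaca (-1.99 to -0.30), Ppp1cc (-0.76 to -0.30) and Gsk3a (-1.01 to -0.18) kept their sign. Over all genes, an unadjusted p under 0.05 was reached by 2379 genes without a filter, 887 with a filter at 5 FPKM and 939 without aged replicates 1 and 2, and by 1154 to 2186 when 1 library was left out (2186 without young replicate 5). Unfiltered and stricter fits test more and fewer genes, 24839 and 7823. An adjusted p under 0.05 was reached by 0 to 1 genes when 1 library was left out, none of them among the 10. The counts when 1 library was left out were 1 to 2 for the 10 genes and 5 to 12 for the other pathway genes. The share over all tested genes in those fits was 8.88% to 16.8%. Without a filter 16 other pathway genes were counted, where the share over all tested genes was 9.58%. Same-numbered samples did not deviate together (correlations of -0.16 to 0.05, against -0.18 to 0.20 for differently numbered ones). These correlations gave no sign of pairing, but they cannot show that same-numbered samples were prepared apart. With a replicate block 1255 genes (9.67% of those tested) and 2 other pathway genes had an unadjusted p under 0.05 by limma, and the Camk4 p was 0.0098. The cause of these shifts was not tested. The interval of each gene shows which differences 5 libraries per group leave possible.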
